A study of Mus musculus with 4 samples.

Results

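The genes described here encode the proteins of the cytosolic ribosome, the particle that translates messenger RNA outside mitochondria. Members were taken by name, as every probe whose gene name in the scanner files begins with Rpl or Rps and a number, or with Rplp and a number, leaving out the Rps6k kinases. This gave 91 gene names out of 34821, carried by 198 of 55681 probes. Of these, 75 are core ribosomal protein (RP) genes, 45 of the large and 30 of the small subunit. A further 7 names are paralogues, 6 are pseudogene names, 1 (Rps19bp1) belongs to a protein that binds Rps19, and 2 (Rps12l2 and Rps4y2) are other loci. All 75 core genes were well above background on every array, as were 89 of the 91 members. The exceptions were the paralogues Rpl10l and Rpl3l, which were above background on no array.

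The cells were regulatory T cells (Tregs), which hold immune responses in check under the transcription factor Foxp3. They came from 4 groups of male C57BL/6 mice: deltaDC thymus, wild-type (WT) thymus, deltaDC spleen and WT spleen. The labels name no allele or promoter behind deltaDC, which in the field denotes mice depleted of dendritic cells. Cells of 3 mice per genotype were pooled and flow sorted as live cells carrying CD4 and CD25, without a Foxp3 gate, and 10 ng of total RNA per group was labelled with Cy3 for 1 array. With 1 array per group there are no replicates, so pairwise differences carry only the error between repeated spots of a probe, and the 4 arrays limit the precision of every value.

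A ribosome holds 1 copy of most of its proteins, and the genes for them are usually transcribed together and at high level. Their messenger RNAs begin with a short run of pyrimidines, the terminal oligopyrimidine (TOP) tract, through which the kinase mTOR adjusts their translation, while the transcription factor Myc raises RP and ribosome assembly genes. In T cells ribosome production rises on activation, and a few RP genes have close relatives whose expression is limited to some tissues or states.

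Some promoter features, which played no part in the choice of members, differed in frequency between core genes and all genes. RefSeq promoters (GRCm38.p6; 250 bases before to 50 after an annotated start) were given for 54 core genes. CTTTCC, a TOP-like run, lay within 50 bases of the start on the gene strand in 18 of them (33.3%), 15 of 33 large and 3 of 21 small subunit genes, against 5.43% of all 27025 genes. CCGGAAG, the core of ETS factor sites, lay on either strand in 21 (38.9%), against 9.93% of all genes. AAGATGGC, a YY1 site, was found in 5 (9.26%, against 3.19%), and the TATA box letters TATAAA in the 50 bases before the start in 0 (against 3.15%). Such matches describe letters, not binding. The windows shown here run from 40 bases before to 20 after the start of 4 core genes and of the paralogues Rps27l and Rpl39l, whose signals differ from theirs, and capitals mark CTTTCC and CCGGAAG.
Rpl38 (chr11:114668540-114668599, plus strand): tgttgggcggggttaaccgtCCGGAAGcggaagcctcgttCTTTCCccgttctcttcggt
Rps10 (chr17:27635225-27635284, minus strand): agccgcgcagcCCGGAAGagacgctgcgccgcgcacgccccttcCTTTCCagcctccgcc
Rps21 (chr2:180257339-180257398, plus strand): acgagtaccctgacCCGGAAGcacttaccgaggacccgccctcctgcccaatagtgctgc
Rps27 (chr3:90213629-90213688, minus strand): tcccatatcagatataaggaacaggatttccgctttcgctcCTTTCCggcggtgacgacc
Rps27l (chr9:66946046-66946105, plus strand): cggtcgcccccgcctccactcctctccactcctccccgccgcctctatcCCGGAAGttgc
Rpl39l (chr16:10170188-10170247, plus strand): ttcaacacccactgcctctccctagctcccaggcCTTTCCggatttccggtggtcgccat

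Between 48.7% and 50.7% of spots on an array were well above background, and 0 spots were saturated. Foxp3 had scaled signals of 10557 on deltaDC thymus, 8860 on WT thymus, 10867 on deltaDC spleen and 11661 on WT spleen. Il2ra, which encodes the sort marker CD25, had 25470 on deltaDC thymus, 28097 on WT thymus, 15485 on deltaDC spleen and 28939 on WT spleen, a difference of -0.90 between the spleen arrays, where Tnfrsf18 had 0.21. All 5 Treg and 5 T cell markers were above background on every array. Summed signals of other cell types differed more. Of the 5 neutrophil markers 4, 4, 5 and 1 were above background in that order of arrays, and they summed to 938 on deltaDC thymus, 191 on WT thymus, 9238 on deltaDC spleen and 40.8 on WT spleen. The 5 NK and innate lymphoid markers summed to 8302, 7774, 27939 and 3318 in the same order, with 4, 4, 5 and 4 above background. Most of that sum came from Nkg7, with 7537, 7326, 23544 and 2588. Between the WT arrays Nkg7 and Klrd1 were higher on thymus, while Klrb1c and Eomes were higher on spleen. The 4 erythroid markers summed to 16344, 3974, 5605 and 2012. Of 5 dendritic cell markers 4, 4, 4 and 1 were above background, and nearly all of their sum came from Siglech, with 43139, 49374, 45000 and 70028. Itgax, Flt3 and Zbtb46 had 93.6, 24.3 and 90.5 on deltaDC spleen and 6.52, 8.69 and 17.0 on WT spleen, where each was at its lowest of the 4 arrays. The part of such cells in the RP values was not tested, and in sorted pools fewer cells of a type cannot be told apart from less RNA per cell.

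A scaled signal is the array's intensity multiplied so that its 75th percentile equals 387.8, and the probe with the highest mean stands for a gene. The core genes were among the brightest on the arrays, and 70 of 75 had a mean signal above 50000. Their median signal was 142058 on deltaDC thymus, 122767 on WT thymus, 146832 on deltaDC spleen and 176229 on WT spleen. Core genes held 9.68% of the summed signal of all genes on deltaDC thymus, 9.30% on WT thymus, 9.61% on deltaDC spleen and 10.6% on WT spleen. Of the 75 genes, 74 had their highest signal on WT spleen, the exception being Rps26, which was highest on deltaDC thymus. On WT thymus 71 of the 75 had their lowest signal. These counts were made under 75th percentile scaling. Of 446 other genes with a mean signal above 50000, 372 were lower on deltaDC spleen than on WT spleen. On WT thymus 411 of the 446 were lower than on WT spleen. With quantile normalization 53 core genes were below 0 for deltaDC minus WT spleen, and 53 for WT thymus minus WT spleen. The core medians of both deltaDC arrays lay between those of the WT arrays.

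**Figure D1:**
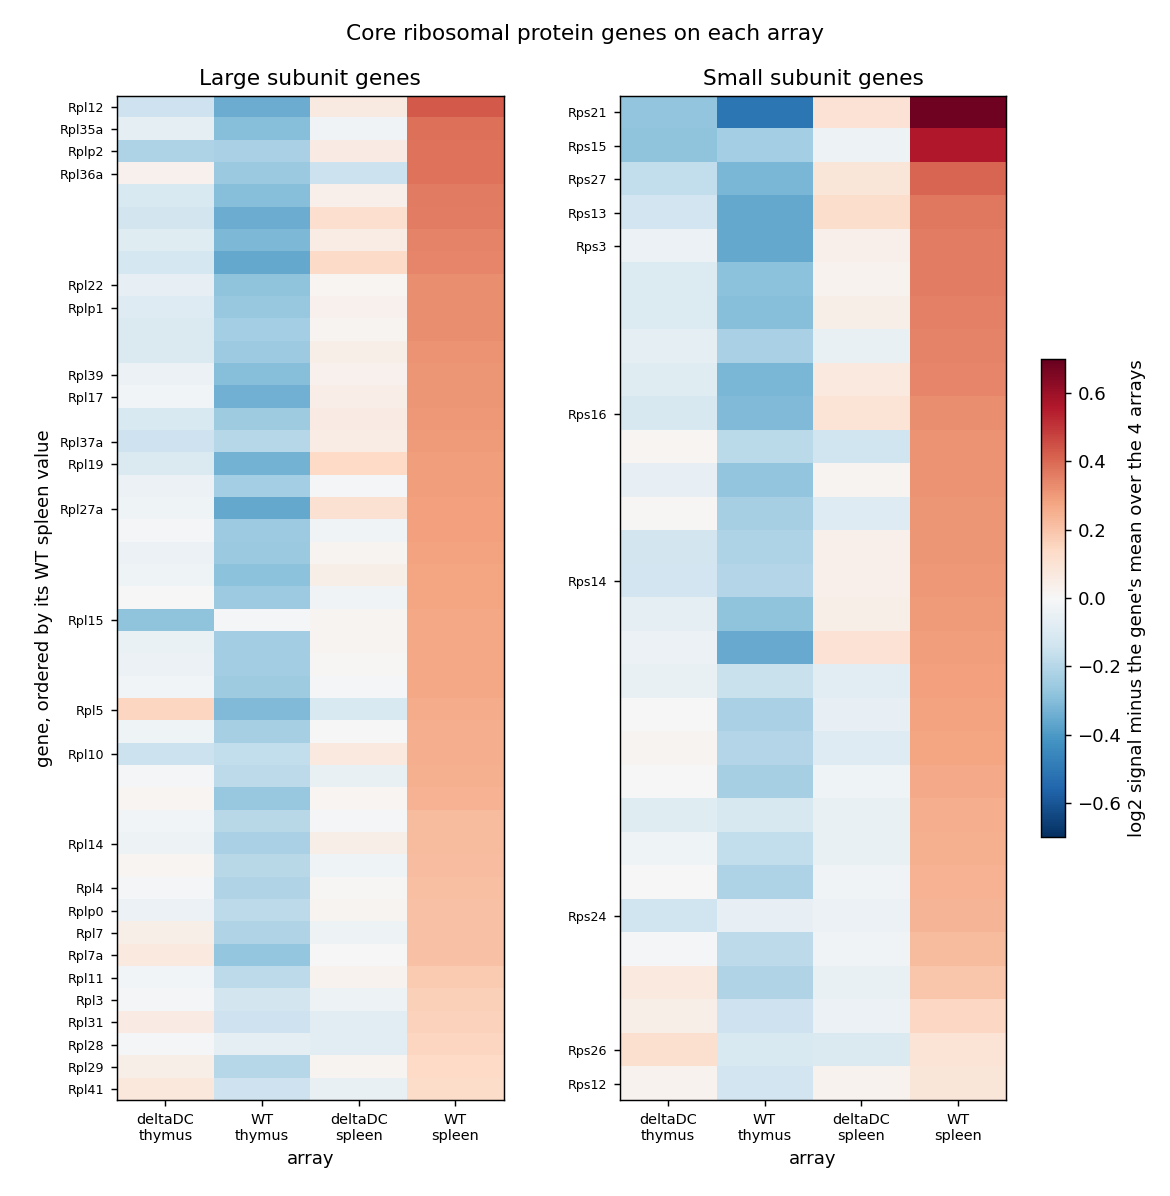
Each row is a core gene, labelled where a gene is among those named, and each column an array; colour gives the log2 scaled signal minus the gene's mean over the 4 arrays. Under 75th percentile scaling the WT spleen column is the highest for 74 of 75 genes and the WT thymus column the lowest for 71. Rps21 has the widest range.

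The first comparison asked how RP messenger RNA of splenic Tregs differs between deltaDC and WT mice. All 75 core genes were lower on the deltaDC spleen array, by a narrow margin: the median log2 difference was -0.27, with an SD over genes of 0.09 and a range of -0.60 to -0.06. Large subunit genes had a median of -0.25 and small subunit genes of -0.29. At least 2-fold different were 0 of 75 core genes, against 8.19% of the 17905 genes measured on both arrays. Among 446 other genes with a mean signal above 50000, 9 were at least 2-fold higher and 0 lower. Of all those genes 56.5% were below 0, with a median of -0.06. At 1.5-fold, 1 core gene, Rps15, was called, against 20.3% of all genes.

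The core genes furthest below were Rps15 at -0.60, Rps21 at -0.58 and Rpl36a at -0.53, and Rpl35a had -0.41. Rps15, a small subunit protein near the decoding site, had signals of 92343 on deltaDC spleen and 139624 on WT spleen. Its second probe, across an exon junction, gave -0.57. Rpl36a had 49421 on deltaDC spleen and 71191 on WT spleen, and its other probes gave -0.47 and -0.40. Closest to 0 were Rps12 at -0.06, with 174632 on deltaDC spleen and 182617 on WT spleen, then Rpl29 at -0.12, Rpl11 and Rpl19 at -0.16 and Rpl14 at -0.18. With spot errors of 0.07 to 0.08, Rps12 was within the error of 0, and Rps15, Rps21 and Rpl36a lay more than 3 such errors below the core median. The 3 brightest core genes, Rpl37a, Rps16 and Rps14, had -0.24, -0.23 and -0.27, and the dimmest after Rps21, Rpl4 and Rps3, had -0.20 and -0.32. The stalk proteins that recruit elongation factors to the ribosome, Rplp0, Rplp1 and Rplp2, stood at -0.19, -0.30 and -0.32.

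In the thymus the same comparison ran the other way. Of 75 core genes 72 were higher on the deltaDC thymus array, with a median of 0.20 (SD 0.10, range -0.27 to 0.46). Large and small subunit genes both had a median of 0.20. Of 18424 genes measured 1.69% differed at least 2-fold, against 0 of 75 core genes and 0 of 446 other genes with a mean signal above 50000. Above 0 were 58.7% of all genes and below 0 were 41.3%, with a median of 0.05. At 1.5-fold 0 core genes were called, against 6.73% of all genes.

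Rpl5, which joins Rpl11 in binding the p53 regulator Mdm2, was the highest at 0.46, with 53950 on deltaDC thymus and 39189 on WT thymus. Rpl7a followed at 0.34, Rpl27a at 0.33 and Rps3 and Rpl17 at 0.32. The 3 core genes below 0 were Rpl15 at -0.27, Rps24 at -0.08 and Rps15 at -0.04. The other Rps24 probes gave 0.09, 0.32 and 0.42. Rpl15 had 92066 on deltaDC thymus and 110828 on WT thymus by its brightest probe, and its other probe gave 0.13, so its direction rests on the probe. Rplp2 stood at 0.01 and Rpl10 at 0.02, both within the spot error of 0.07, while Rplp0 had 0.15 and Rplp1 0.17.

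Set side by side, 72 core genes had genotype differences of opposite sign in the organs, below 0 in spleen and above 0 in thymus. Other bright genes mostly had the same signs under this scaling. Of 446 with a mean signal above 50000, 372 were below 0 in spleen and 380 above 0 in thymus. Of all genes 56.5% were below 0 in spleen and 58.7% above 0 in thymus. The core median difference was 0.47 higher in thymus than in spleen under this scaling, 0.11 with quantile normalization and 0.14 in the authors' matrix. With quantile normalization 53 core genes were below 0 in spleen and 60 above 0 in thymus. Rpl5 (0.83), Rpl36a (0.82) and Rps21 (0.81) were the named genes furthest above that value. By its brightest probe Rpl15 had -0.01, lying below its WT partner in both organs. Its other probe gave -0.17 in spleen and 0.13 in thymus. With 4 arrays this difference of differences has no residual degree of freedom and was not tested.

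Between organs, WT thymus had less RP signal than WT spleen for all 75 core genes, with a median of -0.52 (SD 0.16, range -1.19 to -0.20). Large subunit genes had -0.53 and small subunit genes -0.52. Of 17763 genes measured 62.3% were below 0, with a median of -0.13. Rps21 was the 1 core gene at least 2-fold different, against 9.84% of all genes, and it was lower, as were 4.49% of all genes. Among 446 other genes with a mean signal above 50000, 4 were at least 2-fold higher and 4 lower. At 1.5-fold 25 core genes were called, against 25.2% of all genes. Rps21, a protein of the small subunit's solvent side, had 935 on WT thymus and 2125 on WT spleen, and 1097 on deltaDC thymus and 1426 on deltaDC spleen. Its only probe is the dimmest of the brightest probes of the core genes and carries the AATAAA polyadenylation letters, in capitals in this 30-base stretch.
Rps21 probe (within chr2:179993084-179993143 of mm9, plus strand): gaatttgttacaAATAAAagttttaagtac

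Rps15 followed Rps21 in the WT organ comparison at -0.80 (80328 on WT thymus and 139624 on WT spleen), then Rpl12 at -0.77, Rps13 at -0.73 and Rps27 at -0.72. Least different were Rps26 at -0.20, Rpl28 and Rps12 at -0.22, Rpl41 at -0.27 and Rpl15 at -0.29. Rps26, which lines the exit channel of messenger RNA, had 161112 on WT thymus and 185258 on WT spleen.

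In deltaDC mice the organs differed little. The core median of deltaDC thymus minus deltaDC spleen was -0.06 (SD 0.13, range -0.38 to 0.26), with 49 genes below and 26 above 0. Those counts turned to 29 below and 44 above with quantile normalization and to 28 and 46 in the authors' matrix. Of all 18134 genes measured 52.1% were below 0. None of the 75 was 2-fold different, against 10.4% of all genes, and 0 were at 1.5-fold, against 22.6%. Among 446 other genes with a mean signal above 50000, 0 were at least 2-fold higher and 4 lower. Rps21 was again the lowest, at -0.38, followed by Rpl15 at -0.30, Rplp2 at -0.27, and Rps27 and Rps13 at -0.26. Rpl5 was the highest at 0.26, then Rps26 at 0.21, and Rpl36a at 0.18, while Rpl31 had 0.14. Comparisons that share an array are not independent of each other.

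**Figure D2:**
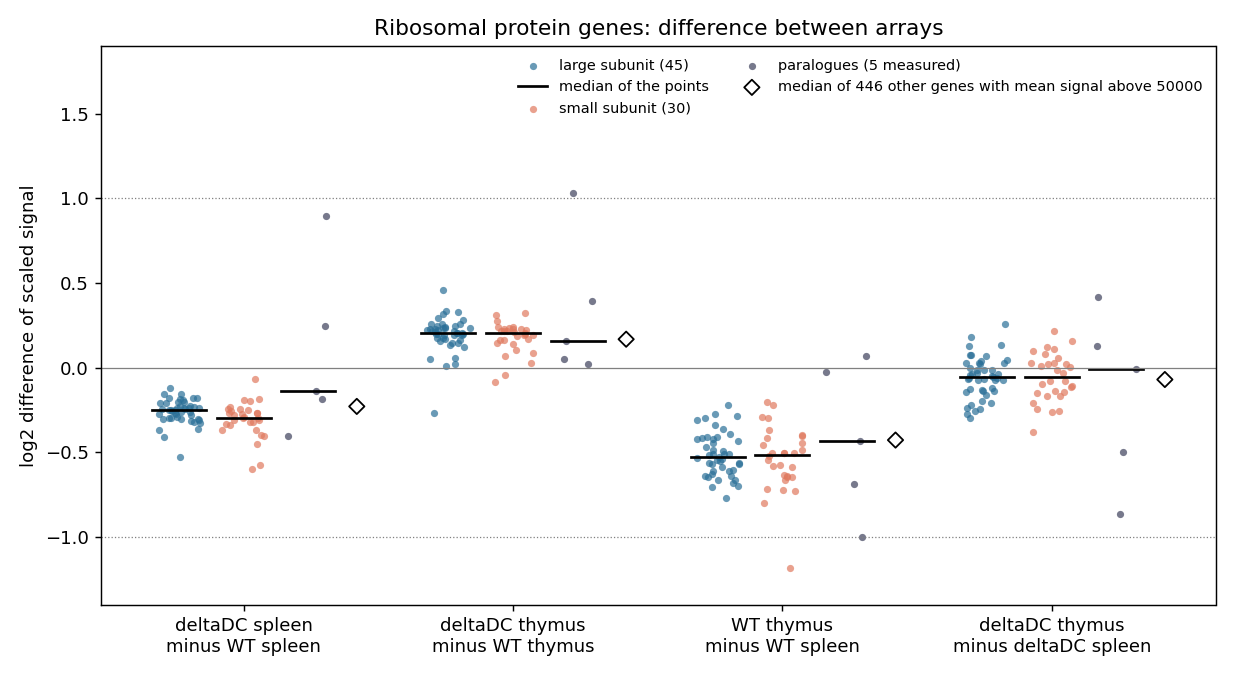
Each point is a gene's log2 difference of scaled signal between the arrays named below it, black lines are medians of the points and diamonds the median of 446 other bright genes. Core genes form a tight group in each comparison, at -0.27, 0.20, -0.52 and -0.06, and Rpl39l is the paralogue near 1 in the genotype comparisons.

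The shift of the core genes was close to that of other bright genes under this scaling. The 446 other genes with a mean signal above 50000 had medians of -0.23 for deltaDC spleen minus WT spleen, 0.17 for deltaDC thymus minus WT thymus, -0.43 for WT thymus minus WT spleen and -0.07 for deltaDC thymus minus deltaDC spleen. Before scaling, the 75th percentiles of the arrays were 417 on deltaDC thymus, 406 on WT thymus, 392 on deltaDC spleen and 340.0 on WT spleen, whereas their highest intensities lay within 381261 to 393589. Quantile normalization, which gives every array the same distribution, brought the core medians to -0.05, 0.06, -0.10 and 0.04 in the same order of comparisons, the last with its sign turned. The size of the shift thus depended on the scaling.

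**Figure D3:**
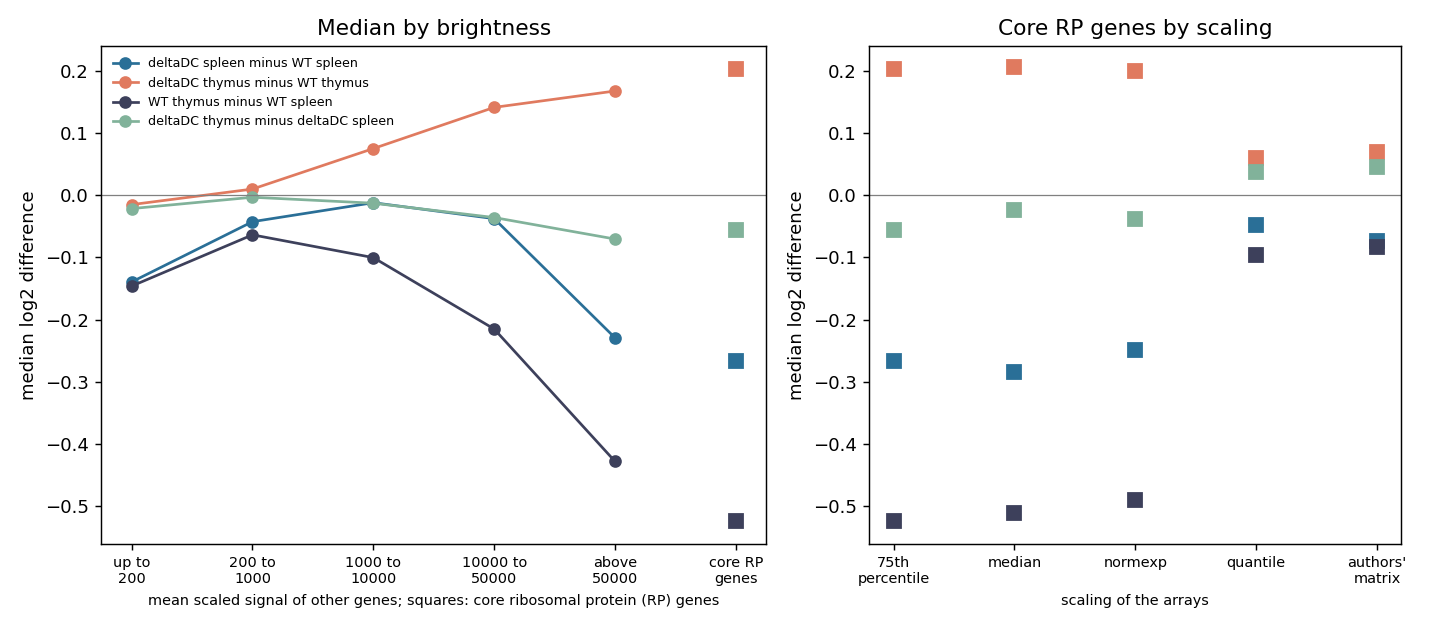
Left, circles give the median log2 difference of other genes by mean scaled signal and squares that of the 75 core genes, for the 4 comparisons. Right, the core median under 5 ways of scaling the arrays, near 0 with quantile normalization and in the authors' matrix.

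Core genes also carry dimmer probes. A set chosen after the values were seen, the 26 core probes of 23 genes with a mean signal under 10000, had 24 probes measured in each comparison, with medians of -0.45 for deltaDC minus WT spleen, 0.18 for deltaDC minus WT thymus, -0.47 for WT thymus minus WT spleen and 0.09 for deltaDC thymus minus deltaDC spleen. Of these, 10 had mean signals under 1000, and some genes, such as Rpl17 and Rpl21, had several such probes. The 14 probes of 13 genes between 1000 and 10000 can be set beside other genes of that range. All 14 were below 0 for deltaDC minus WT spleen, with a median of -0.46, against -0.01 for 5982 other genes. All 14 were above 0 for deltaDC minus WT thymus, with a median of 0.18, against 0.07. Of 5910 other genes in that range by mean log2 signal, 3054 were below 0 in spleen and 3991 above 0 in thymus. For WT thymus minus WT spleen the 14 probes had -0.47, against -0.10, and for deltaDC thymus minus deltaDC spleen 0.13, against -0.01. Under quantile normalization the 14 probes had medians of -0.46, 0.13, -0.32 and 0.18 in the same order of comparisons, with 14 below 0 in spleen and 11 above 0 in thymus. Other genes of that range then had medians of -0.01, 0.01, -0.01 and 0.02. One of the dimmest core probes, for Rpl21, begins at base 1514 of its transcript, where the brightest Rpl21 probe spans a junction.

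An Rpl23 probe spotted 10 times on each array gives the spread between spots. It averaged 4965 ± 153 on deltaDC thymus, 3893 ± 443 on WT thymus, 3803 ± 111 on deltaDC spleen and 5131 ± 283 on WT spleen (SD over 10 spots of 1 array). The highest deltaDC spleen spot, at 3971, lay below the lowest WT spleen spot, at 4808, and the lowest deltaDC thymus spot, at 4768, above the highest WT thymus spot, at 4280. These are spots of single arrays, not animals. For deltaDC minus WT the repeated probe gave -0.43 in spleen and 0.36 in thymus, and the brightest Rpl23 probe -0.25 and 0.20. Between organs they differed: for deltaDC thymus minus deltaDC spleen the repeated probe, lowest on deltaDC spleen, gave 0.38 and the brightest -0.04, and for WT thymus minus WT spleen -0.41 and -0.49.

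Fitting genotype and organ together over the 4 arrays left 1 residual degree of freedom. By limma, 125 of 19396 genes (0.644%) passed an adjusted p of 0.05 for organ and 0 (0.0%) for genotype. An unadjusted p under 0.05 was seen for 3682 genes for organ and 1045 for genotype. No core gene passed for either effect, and 0 of 75 had an unadjusted p under 0.05. The lowest adjusted p among core genes was 0.292 for organ and 0.794 for genotype. The fit assumes 1 genotype effect for both organs, while the core medians had opposite signs.

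Among the 5 measured paralogues, 3 had genotype differences of the same sign as their parent in both organs and 2 did not. Of those 3, Rpl22l1 (0.02) and Rpl36al (0.05) lay within the spot error of 0.07 in thymus, so their sign there is not resolved. Rpl39l, a relative of the large subunit gene Rpl39 with highest expression in testis, had 147 on deltaDC thymus, 71.9 on WT thymus, 268 on deltaDC spleen and 144 on WT spleen. It was above background on all 4 arrays, highest on deltaDC spleen and lowest on WT thymus. It was 2.04-fold higher on deltaDC thymus (log2 1.03, spot error 0.19), where 0.868% of genes were at least 2-fold higher. Among other genes with a mean signal up to 200, 135 of 6187 measured were at least 2-fold higher there. Rpl39l was 1.86-fold higher on deltaDC spleen (0.90, spot error 0.15). Both thymus arrays were lower than the spleen array of their genotype, by -0.87 in deltaDC and by at least 2-fold in WT. Background correction by normexp gave 0.59 in spleen and 0.62 in thymus. In the limma fit its genotype effect was 0.96 with an unadjusted p of 0.00852 and an adjusted p of 0.793. The parent Rpl39 had 79537 on deltaDC thymus, 66591 on WT thymus, 83852 on deltaDC spleen and 101647 on WT spleen, with differences of 0.26 in thymus and -0.28 in spleen.

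Rps27l, a relative of Rps27 that p53 induces, had 15901 on deltaDC thymus, 12114 on WT thymus, 14580 on deltaDC spleen and 12322 on WT spleen. Both deltaDC arrays were above both WT arrays, with log2 differences of 0.39 in thymus and 0.24 in spleen against a spot error of 0.07. Its parent Rps27 had 201866 on deltaDC thymus, 182794 on WT thymus, 241898 on deltaDC spleen and 301655 on WT spleen, so in spleen the paralogue and its parent had opposite signs (0.24 and -0.32). Rps27l and Rpl39l were the 2 of 5 measured paralogues above 0 in both organs.

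Rpl22l1 is the relative of Rpl22, a protein that alpha-beta T cells need for their development in mice. Rpl22l1 had 33844 on deltaDC thymus, 33353 on WT thymus, 34014 on deltaDC spleen and 44968 on WT spleen, with WT spleen standing above the other 3 arrays. Its genotype difference was 0.02 in thymus and -0.40 in spleen, where Rpl22 had 0.22 and -0.31. Rpl36al, close to Rpl36a in sequence, divided by organ, with 13353 on deltaDC thymus and 12888 on WT thymus, and 18904 on deltaDC spleen and 20795 on WT spleen. Its organ differences were -0.50 in deltaDC and -0.69 in WT, while Rpl36a had 0.18 and -0.64. The limma organ effect of Rpl36al was -0.60 with an unadjusted p of 0.0343 and an adjusted p of 0.233. Rpl7l1, a nucleolar relative of Rpl7, had 347 on deltaDC thymus, 311 on WT thymus, 260 on deltaDC spleen and 296 on WT spleen. Its genotype differences were 0.16 and -0.19, and Rpl7 had 0.25 and -0.24. Rpl10l, which serves male germ cells, and Rpl3l, of heart and skeletal muscle, were not well above background on any array. The parents of these were bright, and Rpl10 and Rpl3 had spleen differences of -0.18 and -0.20.

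The probes of the measured paralogues were compared with those of their parents. Within each measured pair the longest run of identical bases between the 60-base probes was 4 to 6 bases. Whether a paralogue probe matches the rest of its parent's transcript was not tested, so these runs do not show that it reads the paralogue alone. Stretches of 30 bases are shown for Rpl39l, Rps27l and their parents, the pairs of opposite sign in spleen, with the shared run in capitals. The brightest Rps27 probe maps to chromosome 9 in the files although the gene lies on chromosome 3, as 7 of the core genes' brightest probes map to another chromosome than the gene.
Rpl39l probe (within chr16:10174657-10174716 of mm9, plus strand): ttagtgagttcatTCAGcagttcagtaata
Rpl39 probe (within chrX:34622696-34623990 of mm9, minus strand, across a junction): aacaaaaTCAGgtacaactctaagagaaga
Rps27l probe (within chr9:66795486-66797176 of mm9, plus strand, across a junction): AAAGCCaggctcacagaaggctgttcattt
Rps27 probe (within chr9:114891517-114891576 of mm9, minus strand): cactgAAAGCCcctgattgaagatgagtgg

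**Figure D4:**
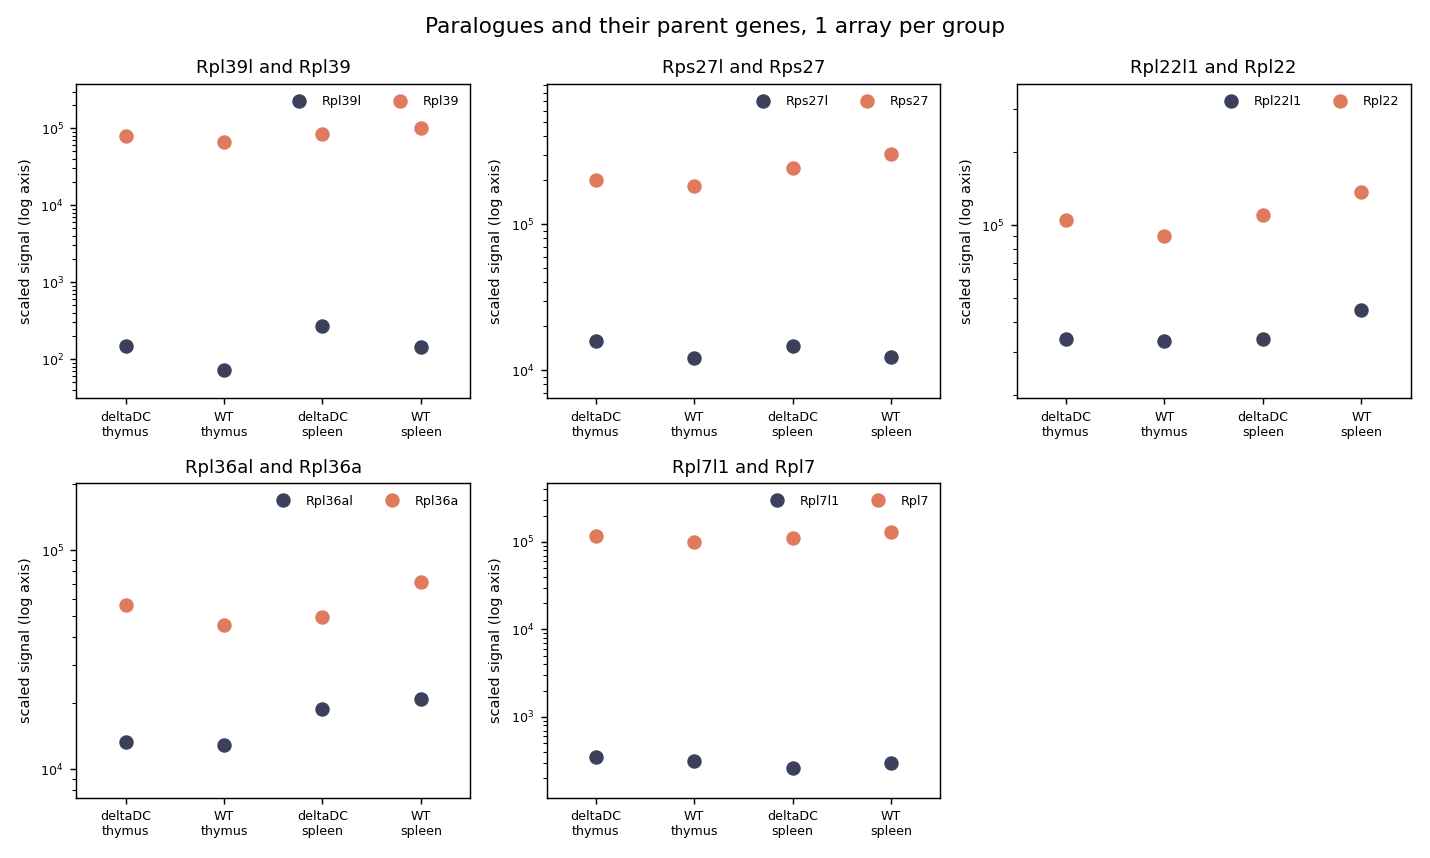
Points are scaled signals on a log axis, 1 array per group, for each paralogue and its parent gene. Rpl39l and Rps27l are higher on the deltaDC array than on the WT array of both organs; levels of different probes are not comparable with each other.

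Probes of the same gene mostly gave the same value. For the 60 core genes with several measured probes, the median range between probes of a gene was 0.08 to 0.11 log2 units in the 4 comparisons. A range of 1 or more was seen for 1, 0, 2 and 3 genes in the order deltaDC against WT spleen, deltaDC against WT thymus, WT organs and deltaDC organs. The probes described next were singled out after their values were seen.

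Rps24, which has splice forms that differ at the end of the coding region and is mutated in some cases of human Diamond-Blackfan anaemia, had a junction probe that stood apart. It had 7597 on deltaDC thymus, 5663 on WT thymus, 3446 on deltaDC spleen and 5074 on WT spleen, lowest on deltaDC spleen and highest on deltaDC thymus. Its log2 differences were 1.14 between deltaDC organs, 0.16 between WT organs, 0.42 in thymus and -0.56 in spleen, with a spot error of 0.08. The other Rps24 probes gave -0.10, -0.16 and 0.00 (brightest, second and a further junction probe) between deltaDC organs. The probe and the brightest one share a run of 6 bases, in capitals.
Rps24 junction probe (within chr14:25312695-25315015 of mm9, plus strand): tgttggtgctggCAAAAAgtgagtggagat
Rps24 brightest probe (within chr14:25315026-25315075 of mm9, plus strand): gacaaataaactaaaaagcttctcCAAAAA

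For Rps20 a pair of probes overlaps on the genome and shares 44 bases, yet differs on 1 array. The second probe had 111967 on deltaDC thymus, 176819 on WT thymus, 171877 on deltaDC spleen and 206425 on WT spleen, so deltaDC thymus lay below the other 3 arrays. The brightest probe had 239392, 234901, 244909 and 303576 in the same order, with deltaDC thymus within 0.03 of WT thymus. For deltaDC minus WT thymus the second probe gave -0.66 and the brightest 0.03. Their last 30 bases follow, with the shared part in capitals.
Rps20 second probe (within chr4:3761615-3761674 of mm9, minus strand): AACTGAATAAATCGacttaatagtcaaatt
Rps20 brightest probe (within chr4:3761620-3761679 of mm9, minus strand): AAGACAACTGAATAAATCGtcttaatggtc

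**Figure D5:**
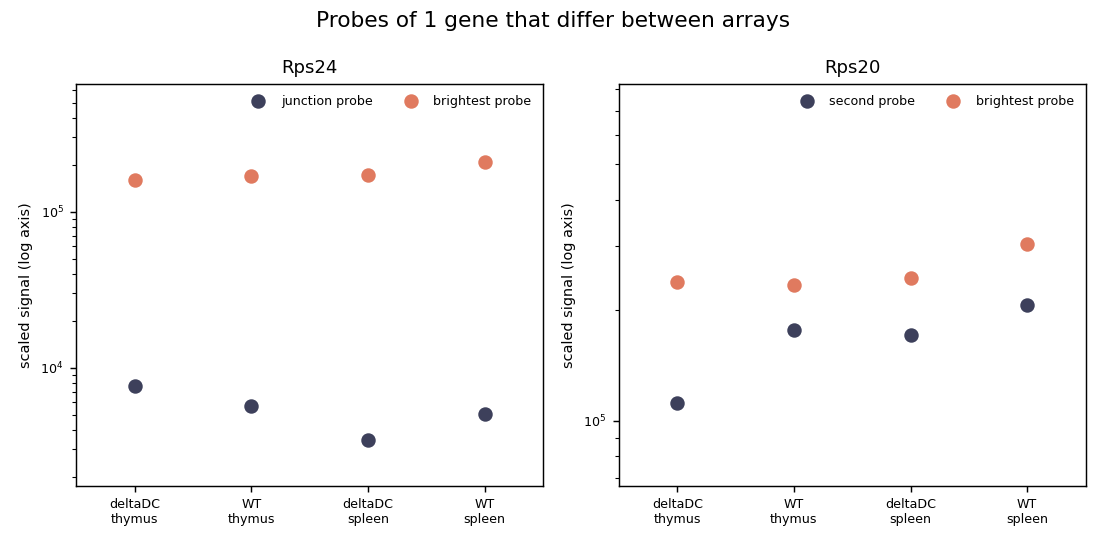
Points are scaled signals on a log axis, 1 array per group, for probes of Rps24 and Rps20. The Rps24 junction probe is lowest on deltaDC spleen and highest on deltaDC thymus, and the second Rps20 probe is low on deltaDC thymus alone.

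Dim probes of Rpl14, Rpl15, Rpl22 and Rpl31 at bases 853, 1530, 1882 and 791 of their transcripts were lowest on deltaDC spleen, like the repeated Rpl23 probe. The Rpl22 one had 4308 on deltaDC thymus, 3929 on WT thymus, 2843 on deltaDC spleen and 4198 on WT spleen. Between deltaDC organs these 4 probes gave 0.48, 0.38, 0.60 and 0.51, where the brightest probes of the same genes gave -0.07, -0.30, -0.07 and 0.14. The 4 were singled out after their values were seen, and not all dim probes were like them. Those of Rps6, Rpl27a and Rpl21 at bases 1274, 984 and 1514 were also lowest on deltaDC spleen, but gave 0.04, 0.06 and 0.08. Dim probes of Rpl13, Rps3a and Rpl30, among others, were lowest on WT thymus.

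Outside the name pattern, Rpsa, Fau and Gnb2l1 (now Rack1) encode 2 further small subunit proteins and the scaffold protein bound to that subunit. For deltaDC minus WT spleen Rpsa had -0.29, Fau -0.19 and Gnb2l1 -0.20, and for deltaDC minus WT thymus 0.02, 0.15 and 0.13. Between WT organs they had -0.56, -0.56 and -0.36, and between deltaDC organs -0.25, -0.21 and -0.02. Fau had 293447 on deltaDC thymus, 264473 on WT thymus, 340068 on deltaDC spleen and 389276 on WT spleen.

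Of 20 translation factors with TOP messenger RNAs, 18 were below 0 for deltaDC minus WT spleen (median -0.15; 56.5% of all genes were below 0), with the elongation factor Eef1b2 lowest at -0.43 and the initiation factor subunit Eif3l highest at 0.16. For deltaDC minus WT thymus 18 of 20 were above 0 (median 0.19; 58.7% of all genes were above 0), from Eif4b at -0.20 to Eef1d at 0.34. Between WT organs the median was -0.29, with Eef1d at -0.63 and Tpt1 at -0.59, and between deltaDC organs 0.08, with Hnrnpa1 at 0.53 and the nucleolar chaperone Npm1 at 0.44. None of the 20 was 2-fold different in any of the 4 comparisons, where 8.19% (spleen), 1.69% (thymus), 9.84% (WT organs) and 10.4% (deltaDC organs) of all genes were.

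Of 48 ribosome assembly genes, 37 were below 0 for deltaDC minus WT spleen (median -0.16), against 56.5% of all genes, and 36 above 0 for deltaDC minus WT thymus (0.08), against 58.7%. Between WT organs the median was 0.03, where core RP genes had -0.52 under this scaling and -0.10 with quantile normalization. Other genes there had medians of -0.43 at mean signals above 50000 and -0.10 at 1000 to 10000. Between deltaDC organs the assembly genes had a median of 0.29, with 38 of 48 above 0, against 47.9% of all genes. Gnl3, a nucleolar GTPase, was the highest between organs, at 0.78 in deltaDC and 0.59 in WT. Mdn1, an ATPase of large subunit assembly, had -0.56 for deltaDC minus WT spleen and 0.69 between deltaDC organs. None of the 48 was 2-fold different in any comparison, against the same 1.69% to 10.4% of all genes. The 76 mitochondrial RP genes, whose products form a separate ribosome, had medians of 0.09 in spleen and 0.23 in thymus for deltaDC minus WT, and of 0.03 between deltaDC organs and -0.14 between WT organs. None of the 76 was 2-fold different either, against 1.69% to 10.4%. Mrpl27 was the highest in spleen, at 0.58. In spleen 49 of 76 were above 0, as were 43.5% of all genes, where 0 of 75 cytosolic core genes were. The lists were not matched for brightness. Of other genes with a mean signal above 50000, as 70 of 75 core genes had, 16.6% were above 0. Of those at 1000 to 10000, 48.3% were. With quantile normalization 18 of 75 core genes were above 0.

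Few regulators of RP synthesis were 2-fold different. In spleen 1 of 20 measured was, against 8.19% of all genes, and in thymus 1 of 21, against 1.69%. Between WT organs 0 of 20 were, against 9.84%. Between deltaDC organs 1 of 20 was at least 2-fold higher and 1 lower, where 10.4% of all genes were 2-fold different. Myc had 2918 on deltaDC thymus, 3059 on WT thymus, 1287 on deltaDC spleen and 2587 on WT spleen, standing low on deltaDC spleen alone. Its log2 difference was -1.01 in spleen, where 3.27% of genes were at least 2-fold lower, and -0.07 in thymus. Between deltaDC organs it was 1.18, where 4.96% were at least 2-fold higher. Ddit4, an inhibitor of mTOR signalling, had 13132 on deltaDC thymus, 30319 on WT thymus, 35040 on deltaDC spleen and 42851 on WT spleen. It was low on deltaDC thymus, by -1.21 against WT thymus and -1.42 against deltaDC spleen, where 0.82% and 5.44% of genes were at least 2-fold lower. Eif4ebp1, a repressor of cap-dependent translation, had 0.56 in spleen, and Eif4ebp2 had -0.94 between deltaDC and -0.63 between WT organs. Mycn was above background on the thymus arrays only, at 249 on deltaDC thymus and 240 on WT thymus. Of 21 regulators on the array, the list medians were -0.19 in spleen, 0.00 in thymus, -0.13 between WT organs and -0.04 between deltaDC organs.

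Of 12 proliferation genes 10 were measured, and all 10 exceeded 2-fold, upward, for deltaDC minus WT spleen (median 2.12), where 4.91% of all genes did, and for WT thymus minus WT spleen (2.27), where 5.35% did. Mki67, a marker of cycling cells, had 5542 on deltaDC thymus, 7691 on WT thymus, 7106 on deltaDC spleen and 1859 on WT spleen. In thymus all 10 were below 0 for deltaDC minus WT (median -0.27), and between deltaDC organs the median was -0.04. WT spleen was thus the array with the lowest proliferation signals and the highest core RP signals. The part of this in the RP values was not tested.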

How the data were processed

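Treg RNA of 4 groups was hybridised to 1 one-colour mouse array each, all on 1 slide. Per the file headers, the deposited intensity values, background-subtracted processed signals, came from Agilent Feature Extraction 10.7.3.1, beside other columns of quality flags. The authors' deposited matrix of log2 values, stated in its header as quantile normalized, served as an alternative; its columns had medians of 4.95 (deltaDC thymus), 4.95 (WT thymus), 4.90 (deltaDC spleen) and 4.88 (WT spleen), and each correlated best with the scanner array of its label (r = 0.997 across genes). Its offset is unknown. No unmapped columns were used.

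Control and outlier-flagged spots were removed, log2 intensity was set relative to each array's 75th percentile, repeated spots were averaged and the brightest probe represented a gene name. A gene counted as measured where well above background on both arrays and as called at 2-fold. Spot error came from 399 probes spotted 10 times: an SD of a difference of 0.50 at signals up to 50, 0.19 to 200, 0.11 to 1000, 0.08 to 10000 and 0.07 above. limma 3.58.1 in R 4.3.3 (lmFit, eBayes, two-sided, Benjamini-Hochberg over 19396 genes, 2.05 prior degrees of freedom) fitted genotype plus organ after a check on simulated data. Probe coordinates are those of mm9 in the files; promoters are RefSeq's on GRCm38.p6, and 78 members' accessions carry the same symbol there. Alternatives were normexp, median scaling, quantile normalization, other filters, the median over probes, the matrix and a 1.5-fold threshold. Genes were named by rule: paralogues and their parents, Rplp0, Rplp1 and Rplp2, core genes at 2-fold, the 5 highest and 5 lowest core genes per comparison, the 3 brightest and 3 dimmest, and the 2 highest and 2 lowest of each other list; probes singled out later are said to be so, and a few results are not reported here. Members and lists were chosen with earlier results of these data known.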

Additional observations from a re-analysis of the deposited data

Results flagged for a closer look

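The genotype difference (deltaDC minus WT) had opposite signs in thymus and spleen for the core RP genes. The median of 446 other genes with a mean signal above 50000 did so too, at 0.17 in thymus and -0.23 in spleen. The opposite signs of the core genes drew attention to the values below. Each is the thymus difference minus the spleen difference in log2 units. It was not tested, since each difference rests on 1 array per group. The core median was 0.47, that of large subunit genes 0.46 and that of small subunit genes 0.50. With quantile normalization the core value was 0.11, and in the authors' matrix 0.14. Among large subunit genes the values were 0.83 for Rpl5, 0.82 for Rpl36a, 0.65 for Rpl35a, 0.58 for Rpl17, 0.57 for Rpl12, 0.54 for Rpl7a, Rpl22 (0.5375) and 0.53 for Rpl39. They were 0.51 for Rpl27a, 0.49 for Rpl7, 0.47 for Rplp1, 0.44 for Rpl31, 0.41 for Rpl4, 0.40 for Rpl41, 0.39 for Rpl19, 0.37 for Rpl14, 0.34 for Rplp0 and 0.32 for Rpl11. Among small subunit genes they were 0.81 for Rps21, 0.64 for Rps3, 0.47 for Rps13, 0.46 for Rps27, 0.42 for Rps16 and 0.42 for Rps26. Of these 24 genes, Rpl5, Rpl36a and Rps21 lay more than 0.2 from the core median.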

How the results depend on the processing

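Comparisons are given in the order deltaDC minus WT spleen, deltaDC minus WT thymus, WT thymus minus WT spleen and deltaDC thymus minus deltaDC spleen. Core medians moved with quantile normalization (-0.048, 0.06, -0.0963, 0.0371) and in the authors' matrix (-0.073, 0.0694, -0.083, 0.0452). Large subunit medians were -0.048, 0.0635, -0.0819 and 0.0371 with quantile normalization and -0.0678, 0.071, -0.0948 and 0.0324 in the matrix. Small subunit medians were -0.0478, 0.0557, -0.1114 and 0.0434 with quantile normalization and -0.0765, 0.064, -0.0545 and 0.0623 in the matrix. The sign of deltaDC thymus minus deltaDC spleen turned in both. The cause was not tested. At 1.5-fold, 1 core gene was called in spleen and 25 between WT organs. Normexp gave core medians of -0.25, 0.20, -0.49 and -0.04, and scaling to the median -0.28, 0.21, -0.51 and -0.02. Over all genes, 2-fold counts were 1466, 311, 1747 and 1886, against 724, 82, 948 and 1112 with normexp, 5122, 3040, 5547 and 5591 without a filter, and 208 in thymus when a gene had to be measured on all 4 arrays. For the 43 named genes, 827 of 1148 values under alternatives moved by less than the spot error, 109 changed sign, and 0 values past 2-fold reversed. Of the 109, 46 changed sign under quantile normalization and 47 in the authors' matrix, and 38 had a main log2 difference of at least 0.2. With 1 array per group no replicate block could be fitted; the limma fit of genotype plus organ sets the organs against each other within a genotype.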

Other observations

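The 6 pseudogene names, whose probes may also read their parent genes, had medians of -0.21 for deltaDC minus WT spleen, 0.16 for deltaDC minus WT thymus, -0.29 for WT thymus minus WT spleen and -0.06 for deltaDC thymus minus deltaDC spleen, and none was 2-fold different. Rps15a-ps6 had 125 on deltaDC thymus, 217 on WT thymus, 146 on deltaDC spleen and 182 on WT spleen, low on deltaDC thymus by -0.79 against WT thymus. Rps4y2, whose accession RefSeq names Rps4l, had 165 on deltaDC thymus, 215 on WT thymus, 387 on deltaDC spleen and 285 on WT spleen. It was the 1 member 2-fold different between deltaDC organs, at -1.23, against 10.4% of all genes (5.44% lower). Rps19bp1, which binds Rps19, had 2904 on deltaDC thymus, 2572 on WT thymus, 3219 on deltaDC spleen and 2888 on WT spleen, and was higher on both deltaDC arrays, by 0.18 in thymus and 0.16 in spleen.

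An Rpl14 probe that the files map to chromosome 7, singled out after its values were seen, had -0.41 for deltaDC minus WT thymus and -0.69 between deltaDC organs, where the brightest Rpl14 probe had 0.19 and -0.07.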
